A study of Mus musculus with 40 samples.

Results

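Molecular chaperones fold proteins, and the proteasome degrades them, and the genes of both systems were followed here across 5 exposures of the mouse duodenum. Members were all genes whose symbol in the count table begins with HSP (apart from HSPA1A, HSPA1B and HSPG2), DNAJ, CCT with a digit, BAG with a digit or PSM with a letter from A to G, together with TCP1, FKBP4, STIP1 and HSF1. The rule found 44 of the 2756 gene symbols, read by 50 of the 3045 probes, because 6 of the genes have 2 probes each. By their known roles, 24 are chaperones or co-chaperones, 19 are proteasome subunits, regulators or assembly factors, and 1, Psmc3ip, shares the prefix but is a meiotic recombination factor. The rule found no probe for STIP1 or HSF1 in the count table, so neither was analysed. A filter on low counts kept 49 of the 50 probes, for 43 genes; Hspa1l, an HSP70 known mainly from testis, did not pass it, with 60 reads in all and reads in 4 of 40 libraries.

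Chaperones of the HSP70 family bind unfolded stretches of a protein with the help of DNAJ partners and exchange factors, HSP90 and its co-chaperones finish the folding of kinases and steroid receptors, and the ring-shaped chaperonin CCT folds actin and tubulin. Proteins that cannot be folded are marked with ubiquitin and fed by the 19S cap into the 20S core of the proteasome. Genes of both systems rise in many cells when proteins are damaged, through heat shock factors for the chaperones and through the NRF1 and NRF2 factors for many proteasome subunits, and the epithelium of the duodenum is a tissue of rapid protein synthesis and turnover.

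The samples were formalin-fixed, paraffin-embedded duodenum of wildtype male B6C3F1 mice, all taken from a 28-day exposure. The groups were Cr(VI), hexavalent chromium, at 180 ppm in drinking water, the fungicide captan at 6000 ppm or 12000 ppm in the diet, the fungicide folpet at 6000 ppm or 16000 ppm in the diet, and control. Each exposed group had 7 libraries and control had 5. The sources used here do not give the ages of the mice or say whether each library came from its own mouse, and p-values therefore reflect how much libraries of a group vary, which may be partly technical.

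RNA was read with TempO-Seq, in which 2 short probes bound to neighbouring stretches of an RNA are ligated, amplified and sequenced. Library totals lay between 1763440 and 7904819 reads. Levels are given in CPM, counts per 1e6 of a library size scaled by TMM (a method that sets the bulk of the probes level between libraries), and since probes differ in efficiency a CPM level is compared only within a gene. Tissue markers set the libraries apart. Transcripts of pancreatic acinar cells took between 3.33% and 79.3% of the reads in the Cr(VI) libraries, between 0.223% and 32.4% at captan 6000 ppm, between 0.220% and 51.7% at captan 12000 ppm, between 0.136% and 38.3% at folpet 6000 ppm, between 12.9% and 42.4% at folpet 16000 ppm and between 19% and 73.4% in control. The share passed 50% in 7 libraries, 4 of them Cr(VI), 1 captan 12000 ppm and 2 control, and calls of the members are given below with these 7 left out. All 4 enterocyte markers on the panel, of 12 looked for, were detected in every group, and none of 6 Paneth and goblet cell markers is on it. The summed enterocyte level was 60179 (lowest), 66497 (median) and 79796 (highest) CPM in Cr(VI), 55953 (lowest), 70719 (median) and 79145 (highest) CPM at captan 6000 ppm, 60723 (lowest), 80444 (median) and 87576 (highest) CPM at captan 12000 ppm, 44275 (lowest), 75076 (median) and 97028 (highest) CPM at folpet 6000 ppm, 68949 (lowest), 81029 (median) and 91169.8 (highest) CPM at folpet 16000 ppm and 17087 (lowest), 50195 (median) and 60309.9 (highest) CPM in control, so that every captan 12000 ppm and folpet 16000 ppm library and all but the lowest Cr(VI) library lay above every control. The 7 immune cell markers on the panel, of 13 looked for, summed to 2849.8 (lowest), 4823 (median) and 5772 (highest) CPM in Cr(VI), 5094 (lowest), 6782 (median) and 12995 (highest) CPM at captan 6000 ppm, 3589 (lowest), 4605 (median) and 9300.1 (highest) CPM at captan 12000 ppm, 3339 (lowest), 7182 (median) and 12559 (highest) CPM at folpet 6000 ppm, 2247 (lowest), 2886 (median) and 5954 (highest) CPM at folpet 16000 ppm and 8774 (lowest), 14406 (median) and 27174 (highest) CPM in control, with every Cr(VI) and folpet 16000 ppm library below every control; Cd74 was called lower in all 5 groups, and Csf1r was at 0 at folpet 16000 ppm. The 9 crypt and proliferation markers on the panel, of 11, had medians of 359, 415, 525, 451 and 491 CPM in Cr(VI), at the lower and higher captan doses and at those of folpet, against 547 CPM in control; every Cr(VI) and captan 6000 ppm library lay below every control, and Mcm7 was called lower in those 2 groups, and Pcna was at 0 in both captan groups, at folpet 6000 ppm and in control. The part of these markers and of the acinar share in the results was not tested beyond the values given.

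Heat shock factors bind inverted repeats of the letters GAA. A 3-unit heat shock element, GAA and its complement TTC in turn with any 2 bases between units, starting with either, was found on either strand within 250 bases before to 50 bases after the start site in 3 of the 41 members with a RefSeq promoter window (Hsp90aa1, Hsp90ab1 and Hspa8 have none here), or 7.32%, against 0.662% of 27025 genes. The shorter 2-unit form (GAANNTTC), which lies inside every 3-unit match, was present in 9 of the 41, or 22%, against 9.04% of all genes. The core of the antioxidant response element, the site of NRF2 (TGACNNNGC, either strand), was present in 7 of the 41, or 17.1%, against 14% of all genes. These matches are descriptions of letters in a window and not of bound sites.

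The windows of 6 members called in the tests are shown, with the matched letters in capitals, from RefSeq on GRCm38.p6 and written 5′ to 3′ on the gene's strand. For Hsph1 and Dnajb6 the capitals are the 3-unit heat shock element, at bases 37 to 49 after the start of Hsph1 (chr5:149636287-149636586, minus strand) and from -46 to -34 before that of Dnajb6 (chr5:29735648-29735947, plus strand). For Fkbp4 (chr6:128438607-128438906, minus strand, from -151 to -144) and Hspb1 (chr5:135887669-135887968, plus strand, from -117 to -110 and from -97 to -90) they are the 2-unit form. For the chaperonin genes Tcp1 (chr17:12916079-12916378, plus strand, from -29 to -21) and Cct6a (chr5:129787106-129787405, plus strand, from -115 to -107) they are the antioxidant response element core.
Hsph1: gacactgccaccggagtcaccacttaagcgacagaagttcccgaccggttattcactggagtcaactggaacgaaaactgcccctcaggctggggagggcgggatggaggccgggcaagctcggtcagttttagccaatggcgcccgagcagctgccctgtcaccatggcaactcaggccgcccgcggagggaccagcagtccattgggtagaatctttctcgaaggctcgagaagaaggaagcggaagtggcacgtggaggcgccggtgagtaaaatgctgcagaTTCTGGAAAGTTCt
Dnajb6: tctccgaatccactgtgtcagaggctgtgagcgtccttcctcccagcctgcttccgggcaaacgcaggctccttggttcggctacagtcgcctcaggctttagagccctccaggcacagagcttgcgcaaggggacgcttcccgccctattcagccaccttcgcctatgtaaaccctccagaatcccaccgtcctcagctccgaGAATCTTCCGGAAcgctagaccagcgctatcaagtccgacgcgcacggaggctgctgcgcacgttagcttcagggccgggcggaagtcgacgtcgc
Fkbp4: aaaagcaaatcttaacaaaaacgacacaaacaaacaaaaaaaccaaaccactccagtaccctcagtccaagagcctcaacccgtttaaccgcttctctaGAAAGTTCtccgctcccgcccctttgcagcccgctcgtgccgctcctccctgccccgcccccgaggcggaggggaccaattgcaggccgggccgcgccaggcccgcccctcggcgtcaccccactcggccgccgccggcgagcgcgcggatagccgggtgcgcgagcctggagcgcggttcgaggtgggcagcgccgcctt
Hspb1: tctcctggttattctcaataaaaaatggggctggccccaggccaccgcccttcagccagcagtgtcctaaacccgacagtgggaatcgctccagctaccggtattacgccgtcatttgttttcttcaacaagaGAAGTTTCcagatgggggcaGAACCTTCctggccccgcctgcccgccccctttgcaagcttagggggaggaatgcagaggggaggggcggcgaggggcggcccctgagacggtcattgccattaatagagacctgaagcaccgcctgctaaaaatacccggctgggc
Tcp1: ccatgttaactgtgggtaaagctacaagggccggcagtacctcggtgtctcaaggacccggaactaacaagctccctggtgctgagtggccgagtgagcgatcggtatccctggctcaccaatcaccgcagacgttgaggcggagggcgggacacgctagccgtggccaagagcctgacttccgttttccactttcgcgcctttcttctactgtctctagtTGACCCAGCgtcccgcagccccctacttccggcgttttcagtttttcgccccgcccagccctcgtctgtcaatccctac
Cct6a: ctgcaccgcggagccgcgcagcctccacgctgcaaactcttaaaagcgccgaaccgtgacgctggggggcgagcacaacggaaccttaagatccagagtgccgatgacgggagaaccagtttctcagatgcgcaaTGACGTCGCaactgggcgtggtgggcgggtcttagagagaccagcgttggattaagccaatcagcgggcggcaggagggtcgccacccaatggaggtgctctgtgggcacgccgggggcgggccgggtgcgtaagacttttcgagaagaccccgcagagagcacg

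Among the 19 proteasome genes no window held the 3-unit element, 2 (Psmb9 and Psmf1) held the 2-unit form and 2 (Psmd9 and Psmd12) held the antioxidant core. None of these 4 genes was called in any comparison in edgeR with all libraries. Nor was Hspd1, the third holder of a 3-unit element.

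Cr(VI) was the exposure under which called members were lower and none was higher. Of 49 member probes 5 passed at an adjusted p under 0.05 in edgeR, or 10.2%, all lower, against a background of 5.94% of all tested probes, 2.95% called higher and 2.99% called lower. They were the chaperonin subunit Cct6a, the HSP90 co-chaperone Fkbp4, the cytosolic HSP90 gene Hsp90aa1, the small heat shock gene Hspb6 and the proteasome subunit Psmd2. The median log2 fold change of the members was -0.15 (-0.18 with probes at 0 in a whole group set to a bound of 3 counts per library), beside -0.03 over all tested probes. In bulk tissue, fewer cells of a type and less RNA per cell cannot be told apart.

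At folpet 16000 ppm 6 of 49 member probes passed, or 12.2%, beside a background of 12.6%, 7.91% higher and 4.68% lower. Higher were 3 subunits of the 19S cap (Psmd8, Psmc4 and Psmd14) and the chaperonin subunit Tcp1, and lower were both small heat shock genes, Hspb1 and Hspb6. At folpet 6000 ppm 2 passed, Dnajb6 higher and Hspb6 lower, or 4.08% against 6.22% of all probes (4.60% higher and 1.61% lower).

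Captan gave 3 calls at 12000 ppm, Dnajb6, Psmc4 and Psmd8, all higher, or 6.12% against a background of 6.18%, 4.64% higher and 1.53% lower. At captan 6000 ppm edgeR called 0 members, against 5.16% of all probes (3.78% higher and 1.38% lower); 11 member probes had an unadjusted p under 0.05, or 22.4% against 19.6% of all probes, and DESeq2 called 5, or 10.2% against 8.38%. The median log2 fold changes of the members were 0.00 at captan 6000 ppm, 0.16 at captan 12000 ppm, -0.07 at folpet 6000 ppm and 0.17 at folpet 16000 ppm, beside 0.01, 0.00, -0.00 and -0.05 over all tested probes. With the probes at 0 set to their bounds they were -0.08, 0.15, -0.10 and 0.17. Over the 5 comparisons with control, each gene read by its stronger probe, 11 of 43 members were called at least once, or 25.6%, against 17.5% of all 2328 genes tested; 18 members, or 41.9%, had an unadjusted p of 0.05 or more in all 5, against 56.6% of all genes.

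**Figure D1:**
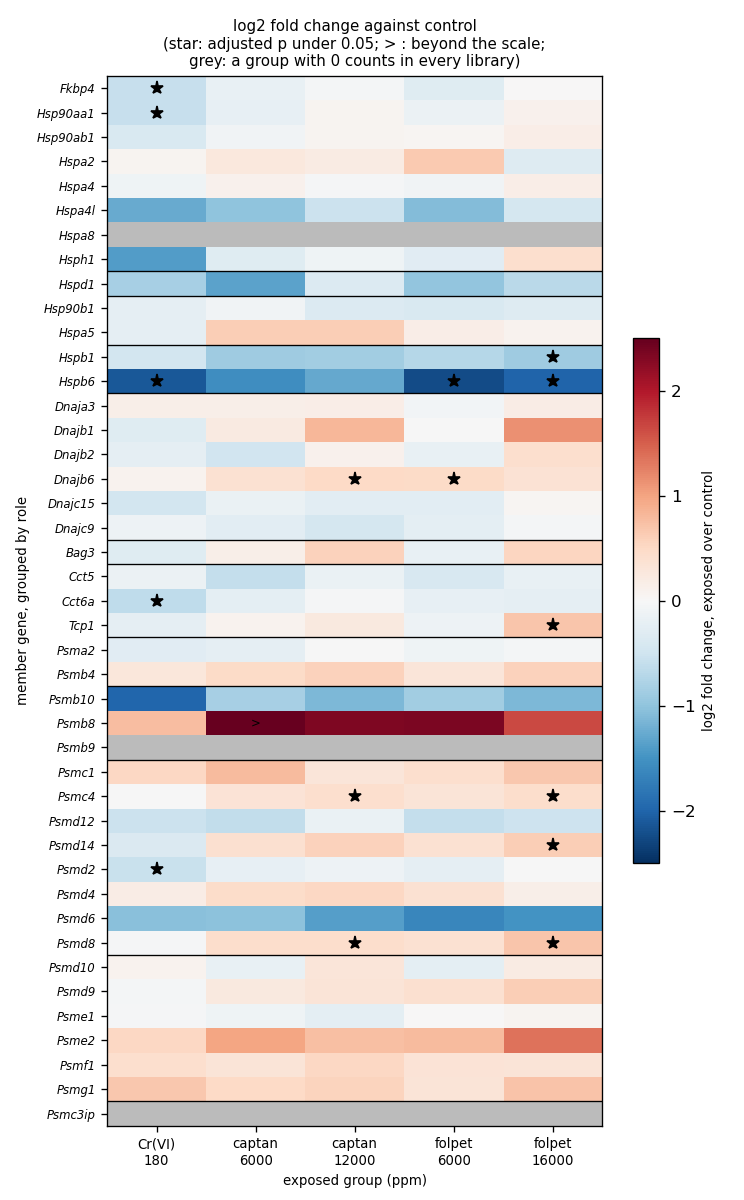
Log2 fold change of each of the 43 tested member genes (rows, grouped by role) in each exposed group over control (columns); stars mark adjusted p under 0.05 and grey marks genes with 0 counts throughout a group. The 5 stars under Cr(VI) are all on negative values, and Psmd8, Psmc4, Psmd14 and Tcp1 carry positive ones under folpet 16000 ppm.

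The HSP90 co-chaperone gene Fkbp4 and the HSP90 gene Hsp90aa1 were called lower under Cr(VI). Fkbp4, an immunophilin that works with HSP90 on steroid receptors, had 732 (lowest), 952 (median) and 1042 (highest) CPM in Cr(VI) libraries, against 1565, 1218, 1316, 1773 and 1050.3 CPM in the 5 control libraries. All 7 Cr(VI) libraries lay below the lowest control library. The log2 fold change was -0.59 ± 0.13 (SE; adjusted p = 0.00263), and the call held in each of the 12 fits that left out 1 library. Without the libraries over 50% acinar, which leaves 3 Cr(VI) and 3 control libraries, it was -0.51 (adjusted p = 0.113).

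In edgeR Fkbp4 did not pass under the fungicides, while DESeq2 called it lower at folpet 6000 ppm (-0.36, adjusted p = 0.0152). Its medians were 1233 CPM at captan 6000 ppm, 1355 CPM at captan 12000 ppm, 1126 CPM at folpet 6000 ppm and 1374 CPM at folpet 16000 ppm, against 1316 CPM in control, with log2 fold changes of -0.20 ± 0.13, -0.05 ± 0.13, -0.30 ± 0.13 and 0.01 ± 0.13. The adjusted p lay between 0.178 (folpet 6000 ppm) and 0.983 (folpet 16000 ppm), and the ranges of all 4 groups overlapped control.

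Hsp90aa1, the stress-responsive cytosolic HSP90, had 740.2 (lowest), 883 (median) and 1185 (highest) CPM in Cr(VI) libraries, against 1517, 1341, 1143, 1566 and 1388 CPM in control libraries. Of the 7 Cr(VI) libraries 6 lay below the lowest control. The log2 fold change was -0.58 ± 0.18 (adjusted p = 0.0454), and the call was lost in 10 of 12 fits that left out 1 library, all but those without control replicate 3 or Cr(VI) replicate 6, with adjusted p up to 0.105. Without the libraries over 50% acinar it was -0.27 (adjusted p = 0.698). A second, weaker probe for this gene, with a mean of 45.4 ± 7.79 CPM in Cr(VI) and 44.0 ± 27.3 CPM in control (SD), gave 0.05 ± 0.43 and did not pass. The constitutive cytosolic partner Hsp90ab1 had 806 (lowest), 1094 (median) and 1321 (highest) CPM in Cr(VI), against 1567, 1239, 1254, 1791 and 1199.8 CPM in control, at -0.38 ± 0.15 (adjusted p = 0.109; in DESeq2 -0.37, adjusted p = 0.0451). The 2 HSP90 genes are close copies, and reads of their probes may not belong to 1 gene alone.

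Of the members in the HSP70 family and its exchange factors, none passed against control in edgeR. The inducible HSP70 genes Hspa1a and Hspa1b lie outside the member rule and are given below. Hsph1, the HSP110 exchange factor, had the widest fold range of any strongly read member, with 21.3 (lowest), 130.0 (median) and 229 (highest) CPM in Cr(VI), 39.1 (lowest), 227 (median) and 718 (highest) CPM at captan 6000 ppm and 184 (lowest), 463 (median) and 539 (highest) CPM at folpet 16000 ppm, against 449, 419.8, 214, 316 and 207 CPM in control. Its Cr(VI) value was -1.39 ± 0.49 (adjusted p = 0.0905; in DESeq2 -1.39, adjusted p = 0.0356), with 6 of 7 libraries below the lowest control. Its second probe had reads in 1 Cr(VI), 3 captan 12000 ppm and 3 folpet 16000 ppm libraries and none in the other groups, control included.

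Hspa4, another HSP110-type exchange factor, had means of 1085 ± 208 CPM in Cr(VI), 1268 ± 204 and 1159 ± 121 CPM at the lower and higher captan doses, 1099 ± 179.7 and 1323 ± 90.9 CPM at those of folpet, and 1176 ± 169 CPM in control (SD). The constitutive HSP70 gene Hspa8, among the most abundant chaperones in most tissues, was barely read here, with 40, 11, 13, 15, 36, 0 and 0 reads in the Cr(VI) libraries and 0 in all 5 control libraries on its stronger probe, so no fold is given. The other tested HSP70 genes of the class did not pass: Hspa2 lay between -0.32 (folpet 16000 ppm) and 0.65 (folpet 6000 ppm) on the log2 scale against control, and Hspa4l between -1.26 (Cr(VI)) and -0.45 (folpet 16000 ppm).

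**Figure D2:**
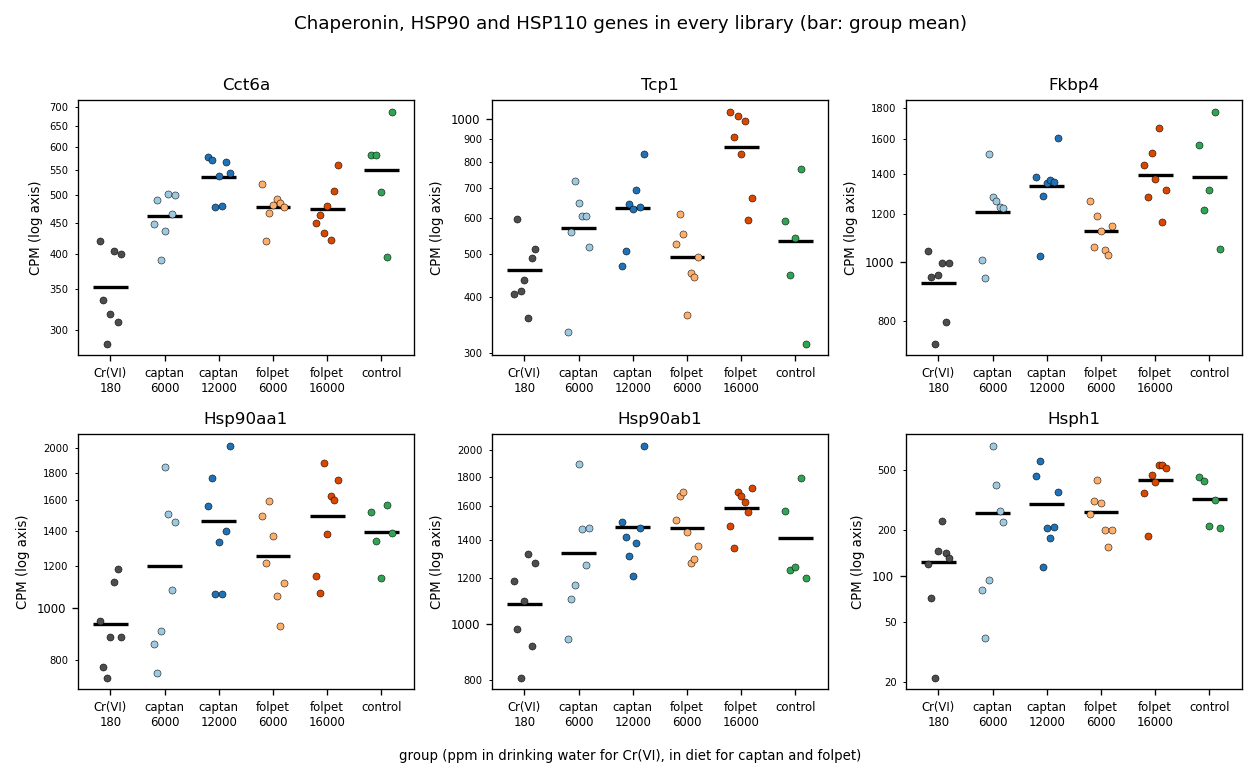
CPM (log axis) of Cct6a, Tcp1, Fkbp4, Hsp90aa1, Hsp90ab1 and Hsph1 in each library (points) with group means (bars), exposed groups left of control. Fkbp4 and Cct6a are low in Cr(VI) libraries, and Tcp1 is high in 5 of the 7 folpet 16000 ppm libraries, above all 5 controls.

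Different chaperonin subunits were called under Cr(VI) and under folpet. Cct6a, which encodes the zeta subunit of CCT, had 285 (lowest), 336 (median) and 421 (highest) CPM in Cr(VI), against 583, 582, 507, 395 and 686 CPM in control. Only control replicate 4 fell within the Cr(VI) range, and the log2 fold change was -0.64 ± 0.12 (adjusted p = 0.000711). The call held in each fit without 1 library, and without the libraries over 50% acinar the value was -0.53 (adjusted p = 0.0685). Under the 4 fungicide exposures Cct6a lay between -0.25 (captan 6000 ppm) and -0.04 (captan 12000 ppm) and did not pass in edgeR; DESeq2 called it lower at captan 6000 ppm (-0.33, adjusted p = 0.0491) and folpet 16000 ppm (-0.30, adjusted p = 0.0487).

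Tcp1, the alpha subunit of the same ring, was called at folpet 16000 ppm. It had 593 (lowest), 908 (median) and 1036 (highest) CPM there, against 590.1, 447, 543, 772 and 314 CPM in control, and 5 of 7 folpet libraries exceeded the highest control. The log2 fold change was 0.69 ± 0.18 (adjusted p = 0.00609), held in every fit that left out 1 library, and was 0.73 (adjusted p = 0.007) without the libraries over 50% acinar. In the other groups Tcp1 averaged 459 ± 80.4 CPM in Cr(VI), 571 ± 123 CPM at captan 6000 ppm, 630.4 ± 120.4 CPM at captan 12000 ppm, 492 ± 81.3 CPM at folpet 6000 ppm and 533 ± 169.9 CPM in control (SD). The third subunit on the panel, Cct5, passed in no edgeR comparison, was called lower by DESeq2 at captan 6000 ppm (-0.67, adjusted p = 0.0491) and lay between -0.59 (captan 6000 ppm) and -0.15 (Cr(VI)) on the log2 scale against control. At folpet 16000 ppm Cct5 was at -0.19 ± 0.23 and Cct6a at -0.22 ± 0.12, beside the 0.69 ± 0.18 of Tcp1.

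Of 7 DNAJ probes for 6 genes, the call fell on Dnajb6, a suppressor of protein aggregation. It had 326 (lowest), 419 (median) and 510.3 (highest) CPM at captan 6000 ppm, 329 (lowest), 465 (median) and 545 (highest) CPM at captan 12000 ppm, 362 (lowest), 428 (median) and 567 (highest) CPM at folpet 6000 ppm and 322 (lowest), 391 (median) and 489 (highest) CPM at folpet 16000 ppm, against 388, 355, 224, 274 and 336 CPM in control. All 28 fungicide libraries lay above the control mean, and between 5 and 6 of 7 in each group lay above the highest control.

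The log2 fold changes of Dnajb6 were 0.39 ± 0.15 (adjusted p = 0.116) and 0.50 ± 0.15 (adjusted p = 0.0283) at the lower and higher captan doses, and 0.48 ± 0.15 (adjusted p = 0.0404) and 0.36 ± 0.15 (adjusted p = 0.0993) at those of folpet. Under Cr(VI) it was 0.08 ± 0.15. The captan 12000 ppm call was lost without control replicate 3, control replicate 4 or captan 12000 ppm replicate 3 (adjusted p up to 0.0832), and the folpet 6000 ppm call without control replicates 3, 4 or 5 or folpet 6000 ppm replicates 2, 5 or 6 (up to 0.119). In DESeq2 the folpet 6000 ppm value did not pass (adjusted p = 0.0535). Neither the captan 12000 ppm nor the folpet 6000 ppm value passed in edgeR without the libraries over 50% acinar, at 0.56 (adjusted p = 0.0653) and 0.47 (adjusted p = 0.126).

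Dnajb1, the heat-inducible partner of HSP70, ran from 31.5 to 104 CPM with a median of 64.1 at folpet 16000 ppm, against 43.2, 14.2, 24.9, 13.9 and 48.6 CPM in control, at 1.15 ± 0.56 (adjusted p = 0.194). The groups overlapped. Bag3, a heat-inducible exchange factor that hands HSP70 clients to autophagy, averaged 90.0 ± 16.4 CPM at folpet 16000 ppm and 62.5 ± 44.5 CPM in control (SD), at 0.54 ± 0.32. It did not pass (adjusted p = 0.291) except without the libraries over 50% acinar (1.18, adjusted p = 0.0166).

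Of the small heat shock genes, Hspb6 was called lower in Cr(VI) and at both folpet doses, and Hspb1 at folpet 16000 ppm. Hspb6, an HSP20 protein abundant in muscle, had 0 (lowest), 10.9 (median) and 45.8 (highest) CPM in Cr(VI), 6.61 (lowest), 12.6 (median) and 22.3 (highest) CPM at folpet 6000 ppm and 8.48 (lowest), 15 (median) and 22.3 (highest) CPM at folpet 16000 ppm, against 28.7, 31.1, 64.5, 51.3 and 123 CPM in control. Every library of both folpet groups lay below the lowest control, as did 6 of 7 Cr(VI) libraries. The log2 fold changes were -2.12 ± 0.63 (adjusted p = 0.0349) in Cr(VI), -2.23 ± 0.63 (adjusted p = 0.0211) at folpet 6000 ppm and -2.01 ± 0.63 (adjusted p = 0.0248) at folpet 16000 ppm.

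Captan left Hspb6 short of the threshold. It had 3.75 (lowest), 18.1 (median) and 50.7 (highest) CPM at captan 6000 ppm and 10.4 (lowest), 14.2 (median) and 50.4 (highest) CPM at captan 12000 ppm, at -1.55 ± 0.62 (adjusted p = 0.142) and -1.27 ± 0.62 (adjusted p = 0.23). Control replicate 5 held the highest Hspb6 value of the series. Without it the called values were -1.68 in Cr(VI) (adjusted p = 0.127), -1.79 at folpet 6000 ppm (adjusted p = 0.102) and -1.57 at folpet 16000 ppm (adjusted p = 0.112), so none passed. The call was also lost without folpet 6000 ppm replicate 6, without folpet 16000 ppm replicate 4, and in Cr(VI) without control replicate 3 or any of Cr(VI) replicates 1, 2, 3, 5 and 7. Without the libraries over 50% acinar none of the 3 passed, at -2.71 (adjusted p = 0.0988), -1.67 (adjusted p = 0.17) and -1.46 (adjusted p = 0.181) in the same order.

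Hspb1, the HSP27 gene, had 65.9 (lowest), 77.2 (median) and 164 (highest) CPM at folpet 16000 ppm, against 176, 191, 226, 188 and 80.2 CPM in control. Here control replicate 5 was the low one, and all 7 folpet libraries lay below the other 4 controls. The log2 fold change was -0.89 ± 0.29 (adjusted p = 0.0329), -1.07 without that library, and the call was lost in 8 of the 12 fits without 1 library, all but those without control replicate 5 or folpet 16000 ppm replicates 3, 5 or 7 (adjusted p up to 0.104). The other exposures gave -0.46 ± 0.29 in Cr(VI), -0.88 ± 0.29 at captan 6000 ppm, -0.86 ± 0.29 at captan 12000 ppm and -0.70 ± 0.29 at folpet 6000 ppm, with adjusted p between 0.0621 and 0.426; DESeq2 called it lower at captan 6000 ppm (-0.94, adjusted p = 0.0286) and captan 12000 ppm (-0.90, adjusted p = 0.0383).

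The summed level of the 4 smooth muscle markers on the panel, of 8 looked for, had 442 (lowest), 652 (median) and 870.1 (highest) CPM in Cr(VI), 331 (lowest), 434 (median) and 774 (highest) CPM at captan 6000 ppm, 363 (lowest), 594 (median) and 1069 (highest) CPM at captan 12000 ppm, 407 (lowest), 472 (median) and 634 (highest) CPM at folpet 6000 ppm, 362 (lowest), 442 (median) and 517 (highest) CPM at folpet 16000 ppm and 612 (lowest), 1006 (median) and 1398 (highest) CPM in control. None of the 4 was at 0 in any group. The actin crosslinker gene Flna was called lower in all 5 comparisons with control, the smooth muscle actin gene Acta2 in the 4 fungicide groups and Cnn1 at folpet 16000 ppm. The fourth, Tagln, passed in no comparison, at 0.19 ± 0.45 in Cr(VI) (adjusted p = 0.885), with a median of 106 CPM there and 103 CPM in control. The part of smooth muscle in the lower small heat shock genes was not tested.

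**Figure D3:**
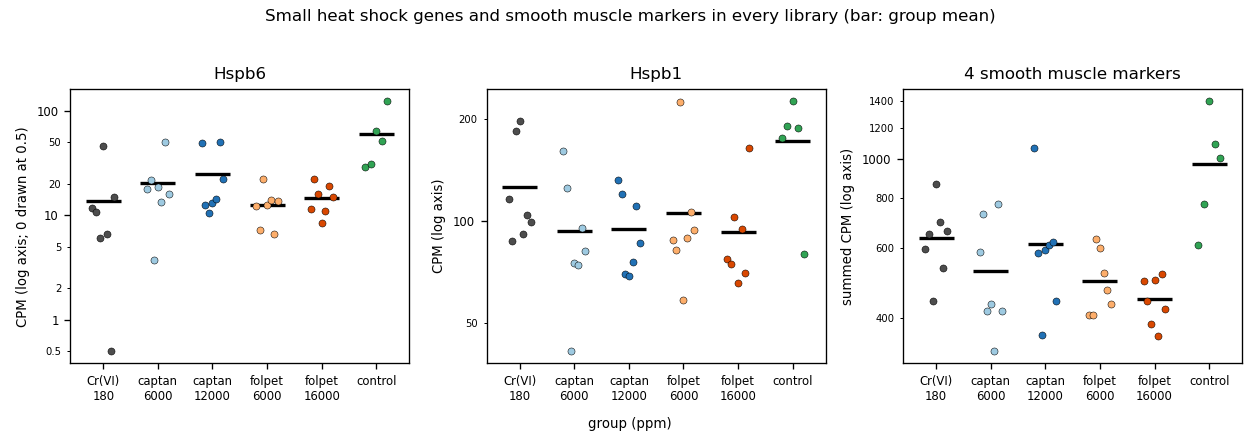
CPM (log axis) of Hspb6 and Hspb1 and the summed CPM of 4 smooth muscle markers in each library (points) with group means (bars), exposed groups left of control; a value of 0 is drawn at 0.5. Hspb6 lies below every control in both folpet groups, and the marker sum is lower in all 7 folpet 16000 ppm libraries than in any control.

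The member chaperones of other compartments, Hsp90b1, Hspa5 and Hspd1, gave no call in edgeR with all libraries. Hsp90b1, the HSP90 of the endoplasmic reticulum, averaged 707 ± 51.3 CPM in Cr(VI), 784 ± 155 CPM at captan 6000 ppm, 656 ± 112 CPM at captan 12000 ppm, 641 ± 89.0 CPM at folpet 6000 ppm, 668 ± 96.6 CPM at folpet 16000 ppm and 830.1 ± 252 CPM in control (SD). Its 5 log2 fold changes against control ran from -0.37 (folpet 6000 ppm) to -0.08 (captan 6000 ppm), and DESeq2 called it lower at folpet 6000 ppm (-0.43, adjusted p = 0.0301) and folpet 16000 ppm (-0.38, adjusted p = 0.038). Hspa5 is the BiP gene of the same compartment and a usual readout of the unfolded protein response. Its probe was read weakly, with 142, 120, 87, 156 and 11 reads in the control libraries. Hspa5 averaged between 22.7 CPM (Cr(VI)) and 40.3 CPM (captan 12000 ppm), against 26.2 ± 13.6 CPM in control. The mitochondrial HSP60 gene Hspd1 was read weakly, with 27, 14, 50, 48, 96, 29 and 91 reads at captan 6000 ppm, against 79, 53, 96, 59 and 53 reads in control, and its largest change was -1.33 ± 0.56 (adjusted p = 0.165), which DESeq2 called (-1.40, adjusted p = 0.0201).

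In the 19S cap, which recognises and unfolds ubiquitinated proteins, Psmd8, Psmc4, Psmd14 and Psmd2 were called against control. Psmd8, a lid subunit, had 966 (lowest), 1406 (median) and 1582 (highest) CPM at folpet 16000 ppm, against 945, 752, 868, 980.0 and 565 CPM in control. The lowest folpet library fell just short of the highest control and the other 6 lay above it. The log2 fold change was 0.69 ± 0.14 (adjusted p = 0.000478), held in all 12 fits that left out 1 library, and was 0.66 (adjusted p = 0.00465) without the libraries over 50% acinar.

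Under the other fungicide exposures Psmd8 had 929 (lowest), 1040.3 (median) and 1343 (highest) CPM at captan 6000 ppm, 863 (lowest), 1103 (median) and 1358 (highest) CPM at captan 12000 ppm and 940.1 (lowest), 1064 (median) and 1301 (highest) CPM at folpet 6000 ppm. All 21 of these libraries lay above the control mean. The log2 fold changes were 0.44 ± 0.14 (adjusted p = 0.0569), 0.44 ± 0.14 (adjusted p = 0.0499) and 0.38 ± 0.14 (adjusted p = 0.114). In edgeR only captan 12000 ppm passed, at the edge of the threshold, and not without control replicates 2 or 5 or captan 12000 ppm replicates 3, 4 or 5 (adjusted p up to 0.188) or without the libraries over 50% acinar, at 0.42 (adjusted p = 0.152). DESeq2 called captan 6000 ppm too (0.38, adjusted p = 0.0473). In Cr(VI) it had 577 (lowest), 838 (median) and 922 (highest) CPM, within the control range, at -0.03 ± 0.14.

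Psmc4, an ATPase of the cap's base, had 446 (lowest), 488 (median) and 593 (highest) CPM at captan 12000 ppm and 438 (lowest), 506 (median) and 561 (highest) CPM at folpet 16000 ppm, against 441, 439, 317, 347 and 317 CPM in control. Every captan 12000 ppm library and 6 of 7 folpet 16000 ppm libraries exceeded the highest control. The log2 fold changes were 0.41 ± 0.13 (adjusted p = 0.0435) and 0.44 ± 0.13 (adjusted p = 0.0183). The first was lost without control replicates 3, 4 or 5 or captan 12000 ppm replicates 3 or 4 (adjusted p up to 0.114), the second without control replicates 3 or 5 (up to 0.0584), and both without the libraries over 50% acinar (0.215 and 0.142). At the lower doses the values were 0.35 ± 0.13 for captan and 0.33 ± 0.13 for folpet, and in Cr(VI) -0.01 ± 0.13, none of them past the threshold.

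Psmd14, the deubiquitinase of the lid, had 51.3 (lowest), 122 (median) and 144 (highest) CPM in Cr(VI), 179 (lowest), 219.9 (median) and 251 (highest) CPM at captan 12000 ppm and 172 (lowest), 209 (median) and 274 (highest) CPM at folpet 16000 ppm, against 198, 169, 140.0, 151 and 72.1 CPM in control. In each high-dose fungicide group 6 of 7 libraries exceeded the highest control. It passed at folpet 16000 ppm alone (0.61 ± 0.21, adjusted p = 0.0469), a call that held in 3 of 12 fits without 1 library, those without control replicates 1 or 2 or folpet 16000 ppm replicate 1, and that had adjusted p up to 0.164 otherwise. Without the libraries over 50% acinar it was 0.42 (adjusted p = 0.252).

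Psmd2, the large scaffold of the base, was instead lower in Cr(VI). It had 147 (lowest), 203 (median) and 281 (highest) CPM there, against 316, 247, 392, 252 and 361 CPM in control, and 5 of 7 Cr(VI) libraries lay below the lowest control. The log2 fold change was -0.56 ± 0.16 (adjusted p = 0.0304), and 5 of 12 fits without 1 library kept the call, those without control replicates 2 or 4 or Cr(VI) replicates 1, 2 or 5 (adjusted p up to 0.12 in the others). Without the libraries over 50% acinar it was -0.51 (adjusted p = 0.28). Under the fungicides it lay between -0.22 (folpet 6000 ppm) and -0.01 (folpet 16000 ppm). The 4 other cap genes, Psmc1, Psmd4, Psmd6 and Psmd12, were not called. Psmd6, with the fewest reads of the 4, had 48.6, 15, 0, 7.54 and 87.4 CPM in the control libraries.

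**Figure D4:**
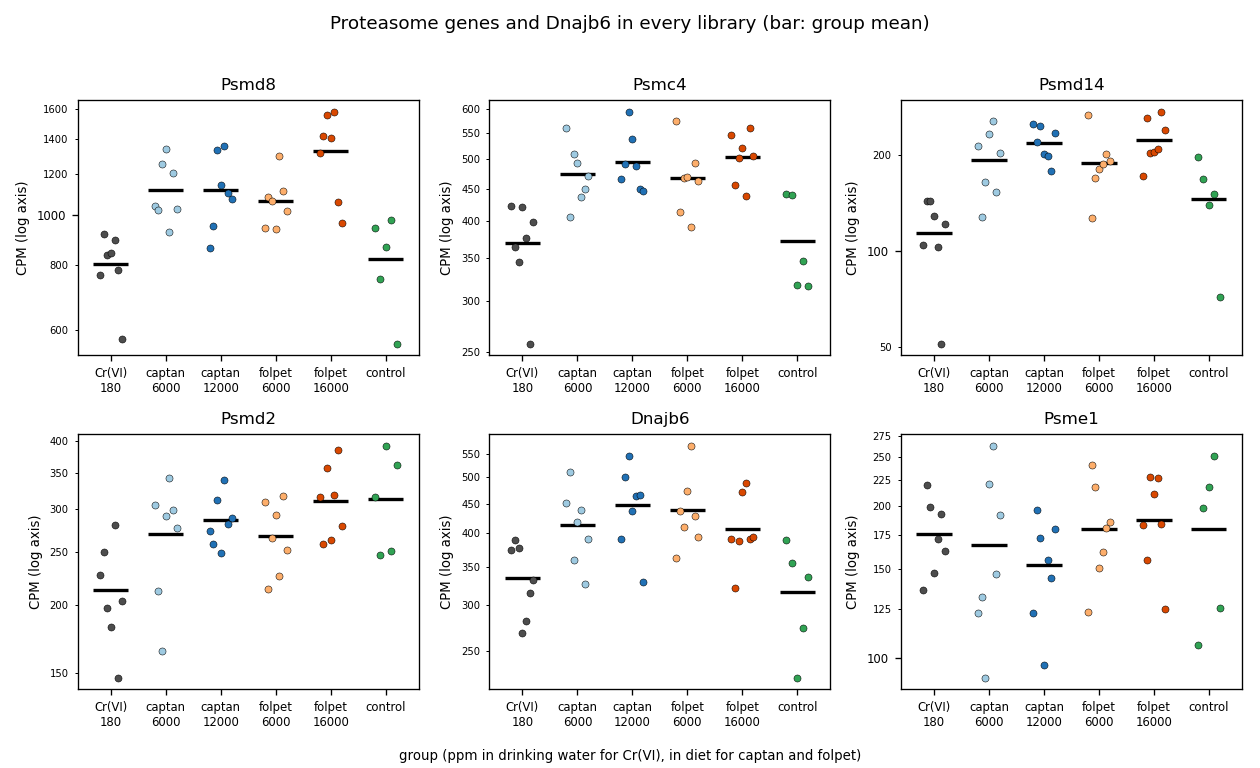
CPM (log axis) of the proteasome genes Psmd8, Psmc4, Psmd14, Psmd2 and Psme1 and of the chaperone Dnajb6 in each library (points) with group means (bars), exposed groups left of control. Psmd8, Psmc4 and Dnajb6 stand above the control mean in all 28 fungicide libraries, while Psme1 overlaps control in every group.

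The 20S core showed no call in edgeR or in DESeq2. Psma2, a subunit of its outer ring, averaged 209 ± 60.2 CPM in Cr(VI), 252 ± 61.6 CPM at captan 12000 ppm, 246 ± 45.6 CPM at folpet 16000 ppm and 254 ± 73.6 CPM in control (SD), with -0.05 ± 0.20 at folpet 16000 ppm beside the 0.69 ± 0.14 of Psmd8. Psmb4, of the inner ring, averaged between 21.1 CPM (Cr(VI)) and 26.2 CPM (captan 12000 ppm), against 17.7 ± 9.76 CPM in control. The immunoproteasome subunits Psmb8, Psmb9 and Psmb10, which replace core subunits in antigen-presenting and inflamed cells, were at the edge of detection: Psmb9 had reads in 1 Cr(VI), 1 captan 12000 ppm and 3 folpet 6000 ppm libraries and in no control. Psmb10 had 10, 0, 0, 0, 32, 26 and 12 reads in Cr(VI), against 32, 108, 43, 35 and 0 in control, and Psmb8 0, 0, 0, 15, 0, 0 and 11 in Cr(VI), against 18, 0, 0, 0 and 0 in control. With so few reads, differences of these genes could not be judged.

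Among activators and assembly factors, Psme1, a subunit of the PA28 activator, did not pass, with means between 153 CPM (captan 12000 ppm) and 188 CPM (folpet 16000 ppm), against 179.7 ± 62.0 CPM in control. Its partner Psme2 had 58, 108, 113, 115, 115, 82 and 81 reads at folpet 16000 ppm, against 54, 6, 45, 53 and 0 reads in control, at 1.36 ± 0.67 (adjusted p = 0.194; in DESeq2 1.28, adjusted p = 0.0381); 6 of 7 folpet libraries exceeded the highest control in CPM. Psmg1, which chaperones the assembly of the core, averaged 192 ± 47.0 CPM in Cr(VI) and 197 ± 29.1 CPM at folpet 16000 ppm, against 120.5 ± 61.4 CPM in control, at 0.67 ± 0.26 and 0.71 ± 0.26 (adjusted p = 0.116 and 0.0649). The base assembly factors Psmd9 and Psmd10 and the regulator Psmf1 did not pass with all libraries; without those over 50% acinar Psmd9 was called at folpet 16000 ppm (1.04, adjusted p = 0.0137). Psmc3ip had reads in 1 captan 6000 ppm, 2 captan 12000 ppm, 1 folpet 6000 ppm and 3 folpet 16000 ppm libraries and in no Cr(VI) or control library.

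Between the folpet doses Tcp1 alone was called, 1 of 49 member probes or 2.04% against a background of 1.73%, 0.590% higher and 1.14% lower. It had 593 (lowest), 908 (median) and 1036 (highest) CPM at 16000 ppm, against 365 (lowest), 492 (median) and 614 (highest) CPM at 6000 ppm, and 6 of 7 libraries at the higher dose lay above all 7 at the lower. The log2 step was 0.81 ± 0.16 (adjusted p = 0.00247) and held in all 14 fits without 1 library. In total, 9 member probes had an unadjusted p under 0.05, or 18.4%, beside 268 of all 2541. Of the 8 that did not pass, Bag3 was at 0.74 ± 0.28 and Dnajb2 at 0.60 ± 0.28, and the second probe of Hsph1 and the probe of Psmb9 were barely read. The steps of the other 4, Psmd8 (0.32 ± 0.13), Fkbp4 (0.31 ± 0.12), Hspa4 (0.27 ± 0.12) and Dnajb1 (1.16 ± 0.50) had unadjusted p of 0.0169, 0.0114, 0.0311 and 0.0254. The median step of the members was 0.24, beside -0.03 over all probes.

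Between the captan doses edgeR called 0 members, as it called 0 of all 2541 probes (0%), and DESeq2 called 0 members; 4 member probes had an unadjusted p under 0.05, or 8.16% against 5.82% of all probes. The captan steps of the same genes were 0.14 ± 0.16 for Tcp1, 0.00 ± 0.13 for Psmd8, 0.15 ± 0.12 for Fkbp4, -0.13 ± 0.12 for Hspa4 and 0.60 ± 0.50 for Dnajb1. The 2 fungicides' steps span different doses and were not compared.

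**Figure D5:**
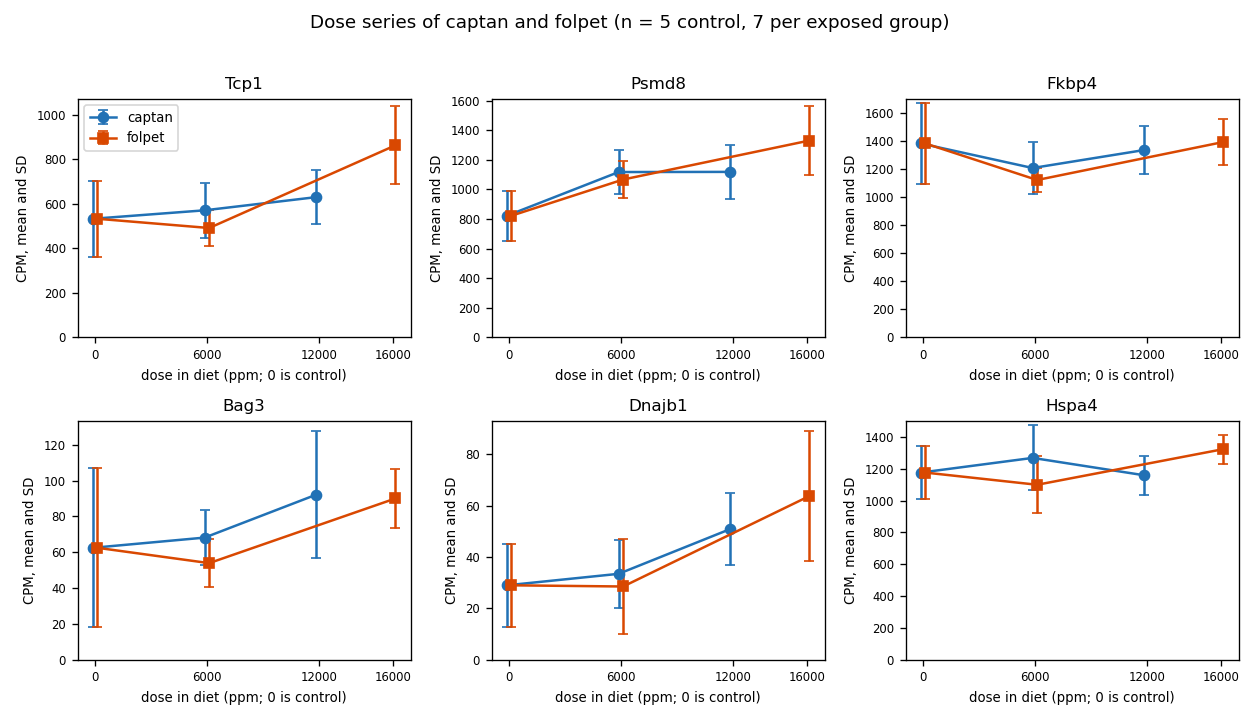
Mean CPM with SD of Tcp1, Psmd8, Fkbp4, Bag3, Dnajb1 and Hspa4 by dose of captan (circles) and folpet (squares) in the diet, with control at 0 ppm, 5 control and 7 exposed libraries per point. Tcp1 is near control at folpet 6000 ppm and reaches 863 CPM at 16000 ppm.

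Captan and folpet both carry a trichloromethylthio group on an imide nitrogen, and the imide is fused to a partly saturated ring in captan and to an aromatic ring in folpet. Their matched dose is 6000 ppm, which gives 1 pair. There edgeR called 0 of 49 member probes, against 0.157% of all probes, and so did DESeq2; 2 members, Hsp90b1 and the barely read Psmb9, had an unadjusted p under 0.05, or 4.08% against 5.12% of all probes. Hsp90b1 had 563 (lowest), 803 (median) and 953 (highest) CPM under captan and 527 (lowest), 647 (median) and 806 (highest) CPM under folpet, a log2 difference of 0.29 ± 0.14 (adjusted p = 0.824 over all probes). The groups overlapped.

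For the members called against control under captan or folpet, the 95% intervals of the difference between captan and folpet at 6000 ppm bound what could have been missed. Intervals of the members called only in comparisons with Cr(VI) are not given. They were -0.19 to 0.33 for Psmd8, -0.21 to 0.26 for Psmc4, -0.35 to 0.41 for Psmd14, -0.35 to 0.18 for Dnajb6 and -0.11 to 0.54 for Tcp1 on the log2 scale. For the small heat shock genes they were wider, -0.72 to 0.36 for Hspb1 and -0.48 to 1.84 for Hspb6. At the higher doses, which differ, Tcp1 averaged 630.4 ± 120.4 CPM at captan 12000 ppm and 863 ± 175 CPM at folpet 16000 ppm, and Psmd8 1118 ± 183 and 1330.2 ± 236 CPM in the same groups (SD).

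Set against the higher fungicide doses directly, all called members were lower in Cr(VI). Against folpet 16000 ppm 10 of 49 passed, all lower in Cr(VI), or 20.4% against a background of 7.32%, 1.97% called higher and 5.35% lower. Against captan 12000 ppm 7 passed, all lower, or 14.3% against 4.64%, 1.50% called higher and 3.15% lower. The 2 comparisons share the Cr(VI) libraries. Both called Cct6a, Fkbp4, Hsp90aa1, Hsp90ab1, Psmc4, Psmd8 and Psmd14, and folpet 16000 ppm added Tcp1, Hsph1 and Psmd2. For Hsp90aa1 the stronger probe was called, at -0.64 against captan 12000 ppm and -0.68 against folpet 16000 ppm, and the weaker probe was not.

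Psmd14 had the largest log2 fold change among the proteasome genes called in these 2 comparisons. All 7 Cr(VI) libraries, at most 144 CPM, lay below the lowest folpet 16000 ppm library at 172 CPM and the lowest captan 12000 ppm library at 179 CPM. The log2 fold changes were -0.98 ± 0.19 (adjusted p = 0.000411) and -0.94 ± 0.19 (adjusted p = 0.00113), and without the libraries over 50% acinar -1.36 and -1.32, both still past the threshold. With the acinar share as a covariate the call against captan 12000 ppm was lost (-0.80, adjusted p = 0.079), and that against folpet 16000 ppm was kept (-0.88, adjusted p = 0.00768). Psmc4 was also fully separated from both groups, at -0.45 ± 0.12 and -0.42 ± 0.12. Psmd8 was at -0.73 ± 0.13 (adjusted p = 0.000109) against folpet 16000 ppm with no overlap, and was at -0.48 ± 0.13 against captan 12000 ppm with overlap.

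Among the chaperones, Tcp1 was at -0.91 ± 0.16 (adjusted p = 0.000111) against folpet 16000 ppm, and Hsph1 at -1.80 ± 0.47 (adjusted p = 0.0112). Cct6a in Cr(VI) lay below all 7 libraries of either fungicide group, at -0.42 ± 0.11 and -0.60 ± 0.11. Fkbp4 lay below all folpet 16000 ppm libraries, at -0.60 ± 0.12, and Hsp90ab1 likewise, at -0.55 ± 0.13; against captan 12000 ppm they were at -0.54 ± 0.12 and -0.45 ± 0.13. All 10 calls against folpet 16000 ppm held in every fit without 1 library. Against captan 12000 ppm Hsp90ab1 was lost in 7 of 14 such fits (adjusted p up to 0.115), those without captan 12000 ppm replicates 1, 6 or 7 or Cr(VI) replicates 2, 3, 4 or 6. Psmc4 was lost without captan 12000 ppm replicate 3 or Cr(VI) replicate 6 (up to 0.0764), and Psmd8 without captan 12000 ppm replicates 3 or 5 or Cr(VI) replicate 7 (up to 0.0641).

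Acinar reads differ between these groups, at a median of 50.9% in Cr(VI), against 0.963% at captan 12000 ppm and 24.2% at folpet 16000 ppm. Without the 7 libraries over 50% acinar, 6 members passed against folpet 16000 ppm, 5 of them among the 10 (Fkbp4, Psmc4, Psmd8, Psmd14 and Tcp1), and 1, Psmd14, against captan 12000 ppm. The calls lost against folpet 16000 ppm had adjusted p between 0.105 (Hsp90ab1) and 0.287 (Hsp90aa1), and those lost against captan 12000 ppm between 0.0575 (Cct6a) and 0.521 (Hsp90aa1). With the acinar share as a covariate 8 passed against folpet 16000 ppm, with Hsph1, Psmc4 and Psmd2 lost and Bag3 added. Against captan 12000 ppm 3 passed, of which Cct6a and Fkbp4 were among the 7 and Tcp1 was added. The shares of all probes called in these fits are not given. The counts therefore do not show whether members lost more calls than other genes. With library totals in place of TMM the median of all probes itself moved to -0.78 against captan 12000 ppm and -0.27 against folpet 16000 ppm, and the members' medians to -1.06 and -0.64, against -0.35 and -0.32 under TMM.

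Other genes of protein quality control were read beside the members. The inducible HSP70 genes Hspa1a and Hspa1b, the classical heat shock readout, had a summed level of 8 (lowest), 25.6 (median) and 61.1 (highest) CPM in Cr(VI), 4.05 (lowest), 24.4 (median) and 588 (highest) CPM at captan 6000 ppm, 182 (lowest), 628 (median) and 816 (highest) CPM at captan 12000 ppm, 29.2 (lowest), 42.4 (median) and 131 (highest) CPM at folpet 6000 ppm and 483 (lowest), 983 (median) and 1421 (highest) CPM at folpet 16000 ppm, against 65.1 (lowest), 168 (median) and 299 (highest) CPM in control. All 7 folpet 16000 ppm libraries lay above every control, and all 7 Cr(VI) libraries below. Of the 2, Hspa1b passed at folpet 16000 ppm (2.71 ± 0.81, adjusted p = 0.0206) and between the folpet doses (4.20 ± 0.75, adjusted p = 0.0013). Against control it did not pass in Cr(VI) (-2.31 ± 0.75, adjusted p = 0.0585) or at captan 12000 ppm (1.80 ± 0.77, adjusted p = 0.173). It was called lower in Cr(VI) than at captan 12000 ppm (-4.11 ± 0.76, adjusted p = 0.000693) and folpet 16000 ppm (-5.03 ± 0.79, adjusted p = 5.33e-05). The 2 genes are near-identical copies that probes may not tell apart.

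Of 4 further co-chaperones tested, Stub1, the ubiquitin ligase that sends HSP70 clients to the proteasome, was higher at captan 12000 ppm (0.46 ± 0.13, adjusted p = 0.0237) and folpet 16000 ppm (0.50 ± 0.13, adjusted p = 0.00806). Fkbp5, a glucocorticoid-responsive relative of Fkbp4, was higher at folpet 6000 ppm (1.87 ± 0.39, adjusted p = 0.00166) and lower at 16000 ppm than at 6000 ppm (-1.84 ± 0.35, adjusted p = 0.00211). Of 15 probes for 13 genes of endoplasmic reticulum folding and the unfolded protein response, Canx was lower in Cr(VI) (-0.52 ± 0.14), Canx, Hyou1 and Xbp1 were lower at folpet 6000 ppm (-0.46 ± 0.14, -0.68 ± 0.16 and -0.80 ± 0.24), and at folpet 16000 ppm P4hb was higher (0.62 ± 0.16) and Xbp1 lower (-0.77 ± 0.24). None of the 15 passed under captan. Against control their median log2 fold changes were -0.37 and -0.35 at the lower and higher captan doses, -0.38 and -0.32 at those of folpet, and -0.17 in Cr(VI). The 4 tested ubiquitin and proteasome partners had median log2 fold changes between -0.22 (captan 6000 ppm) and 0.12 (captan 12000 ppm) against control, and none passed. Cr(VI) against the higher fungicide doses gave calls of co-chaperones and endoplasmic reticulum genes in both directions. Sel1l was higher in Cr(VI) than at captan 12000 ppm (0.88) and folpet 16000 ppm (0.93). Herpud1 (0.76) and Fkbp5 (1.22) were higher than at captan 12000 ppm. Atf4 was lower than at both (-0.74 and -0.55), as was Stub1 (-0.41 and -0.44).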

How the data were processed

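The authors deposited 1 table of raw counts per TempO-Seq probe, with no normalization, for 40 libraries; bcl2fastq 2.17.1.14, Bowtie (version not given) and mm9 are named in the submitters' processing notes, without their roles. No label names molecular identifiers, so reads are not independent molecules, and a bound of 3 counts covers counting error only; SEs and p-values come from the spread across libraries. No 2 libraries of a group were identical. Groups and doses came from the labels, and replicates were numbered by accession, which pairs none of them.

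Members and gene lists were chosen with earlier results of these data known. Counts were fitted in edgeR 4.0.16 (R 4.3.3, limma 3.58.1) with TMM scaling, filterByExpr (minimum count 10, minimum total 15) and the robust quasi-likelihood test on all 40 libraries in 6 groups (34 residual degrees of freedom). Benjamini-Hochberg adjustment ran over all 2541 tested probes, and a call is an adjusted p under 0.05. Fold changes are log2 of the first over the second group, and the SE was taken as log2 fold change over root F. Library totals were 1763440 to 7904819, and the acinar share was summed over 17 probes. The text names every member called in any of 10 comparisons, and in each role class the member with the highest level and that with the largest change; of 2 probes the one with more reads is given. Alternatives were DESeq2 1.42.0, its size factors in edgeR, library totals, no filter, only the 2 compared groups, the acinar share as covariate, leaving out libraries over 50% acinar, and leaving out each library. The code was tested on simulated data. Promoter windows came from RefSeq (GRCm38.p6).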

Additional observations from a re-analysis of the deposited data

Results flagged for a closer look

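Of 156 gene and group pairs examined, 20 held a library whose log2 CPM stood far from the rest of its group by Dixon's criterion. Chance alone meets it in about 1 in 20 groups of normally spread values. That rate does not apply where every other library of the group had 0 reads, as for the Psmb9 and Psmc3ip entries. Cr(VI) replicate 6 recurred: it was the lowest Cr(VI) library for Dnajb1 (0.029), Psmc4 (8.01), Psmd14 (5.69), and, with 0 reads, for Hspb6 and Psmd6 (-1.26 each), and the highest for Psmb9 (3.20, 29 reads). The call of Psmc4 in Cr(VI) against captan 12000 ppm was lost without this library.

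Other Cr(VI) libraries that stood apart were replicate 7 for Psmd8 (9.17, lowest) and replicate 3 for Psmb4 (-1.26, with 0 reads). At captan 6000 ppm replicate 1 was low for Tcp1 (8.38) and replicate 4 high for Psmc3ip (1.40, 17 reads). At captan 12000 ppm replicate 7 was high for Hsp90ab1 (10.99), and replicate 2 was low for Psmb4 (2.44) and high for Psmb9 (1.69, 14 reads).

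At folpet 6000 ppm replicate 6 was low for Hspa5 (1.61) and replicate 1 high for Psmc3ip (1.76, 23 reads). At folpet 16000 ppm replicate 2 was low for Hsph1 (7.53), replicate 5 for Hspd1 (2.07) and replicate 3 for Hspa8 (-1.26, with 0 reads). Control replicate 5 was low for Hspb1 (6.33) and high for Hspd1 (5.59).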

How the results depend on the processing

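No paired analysis was possible because the replicate numbers follow accession order and pair no libraries. Of 34 calls over the 10 comparisons, 33 held under DESeq2, 33 without the low-count filter, 26 with DESeq2's size factors in edgeR, 20 when the fit held just the 2 groups compared, 18 with the acinar share as covariate, 10 without the libraries over 50% acinar and 9 with library totals; over the fits that left out 1 library 366 of 444 held. Library totals moved the median of all probes to -0.30 for Cr(VI), 0.33 and 0.44 for the lower and higher captan doses and 0.28 and -0.05 for those of folpet, all against control.

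Against control, Cr(VI) had 5 calls, and 0 with library totals or only 2 groups, 1 (none of the 5 but Psmd14, at -0.94, adjusted p = 0.0478) without the libraries over 50% acinar and between 2 and 4 without 1 library (2 without control replicate 5). Captan 6000 ppm had 0, and 1 with DESeq2's size factors, 5 in DESeq2 and between 0 and 3 without 1 library (3 without control replicate 1). Captan 12000 ppm had 3, and 0 with DESeq2's size factors, the covariate, only 2 groups or no libraries over 50% acinar, 1 with library totals and between 0 and 4 without 1 library (0 without captan 12000 ppm replicate 3). Folpet 6000 ppm had 2, and 1 with DESeq2's size factors or only 2 groups, 0 with library totals, the covariate or no libraries over 50% acinar, and between 0 and 3 without 1 library (0 without folpet 6000 ppm replicate 6). Folpet 16000 ppm had 6, and 0 with library totals, 3 with the covariate or only 2 groups and between 3 and 6 without 1 library (3 without folpet 16000 ppm replicate 4).

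The folpet dose step had 1 call, and 0 with library totals, 2 with only 2 groups and 1 in every fit without 1 library. Cr(VI) had 7 calls against captan 12000 ppm, and 20 with library totals, 3 with the covariate, 1 without the libraries over 50% acinar and between 5 and 8 without 1 library. The 20 came from a fit in which the median of all probes was itself lower in Cr(VI). Against folpet 16000 ppm Cr(VI) had 10, and 3 with library totals, 6 without the libraries over 50% acinar and between 10 and 11 without 1 library. The captan dose step and captan against folpet at 6000 ppm had 0 in every fit run. The shares of all probes called, or of their calls kept, are not given beside any of the refit counts in this section. Those counts therefore do not show whether members gained or lost calls more than other genes.

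With library totals 3 values that had not passed changed sign and still did not pass: Cct6a was at 0.098 at captan 6000 ppm (adjusted p = 0.965), Hsp90b1 at 0.086 at captan 12000 ppm (adjusted p = 0.928) and Fkbp4 at 0.023 at folpet 6000 ppm (adjusted p = 0.999), in edgeR against control. The cause was not tested. Hspa8, Psmb8, Psmb9, Psmb10 and Psmc3ip had 0 reads in many libraries, which limits what can be said of them. Whether depth or the efficiency of their probes accounts for this was not tested.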
